A study of Homo sapiens with 12 samples.

Results

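The 10 genes described here are 3 FOXO transcription factors, FOXO1, FOXO3 and FOXO4, and 7 genes that cells switch with nutrient supply and insulin signalling: TXNIP, ARRDC4, PIK3IP1, IRS2, KLHL24, CITED2 and BCL6. They were taken by symbol from the 26485 gene symbols in the count tables. All 10 passed the filter on low counts that left 16373 genes to be tested. The libraries were mRNA-seq of cultured cells in 6 groups of 2: A549 cells given SR11302, A549 cells given SP600125, A549 cells without treatment (NT), and B2B cells given SR11302, B2B cells given SP600125 and B2B cells without treatment. A549 is a lung adenocarcinoma cell line. B2B is BEAS-2B, a non-cancerous bronchial epithelial line immortalised with SV40 genes. SR11302, a retinoid-related inhibitor of the transcription factor AP-1, was given at 10 µM, and SP600125, an inhibitor of the JNK kinases, at 50 µM, each for 72 h and each dissolved in DMSO. The labels call the controls untreated, whereas the study's text sets the inhibitor libraries against cells given DMSO. Whether the NT cells received the solvent was therefore not settled, and if they did not, inhibitor and solvent cannot be told apart. Each line is a single line standing for its tissue, and the labels do not say that the 2 libraries of a group came from separate cultures, so the p-values measure only the spread between these libraries.

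FOXO proteins are forkhead factors that the insulin, PI3K and AKT pathway keeps out of the nucleus: AKT phosphorylates them, 14-3-3 proteins hold them in the cytoplasm, and when growth factor signalling drops they enter the nucleus and switch on genes for cell cycle arrest, autophagy, stress resistance and insulin receptor signalling. Another nutrient sensor, MondoA with its partner MLX, reads glucose phosphates and drives TXNIP and ARRDC4, a pair of alpha-arrestins that restrain glucose uptake. JNK also phosphorylates FOXO proteins, and AP-1 is the nuclear end of the JNK pathway.

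In A549 cells both inhibitors raised most of these genes and lowered IRS2, the adaptor of the insulin receptor. Relative to A549 NT, 6 of the 10 genes passed the test as higher and 1 as lower with SR11302, where 14.8% of all tested genes passed as higher and 13.0% as lower, and 7 passed as higher and 1 as lower with SP600125, where 23.9% passed as higher and 25.0% as lower. In B2B cells the pattern was mixed. Relative to B2B NT, 2 genes passed as higher and 4 as lower with SR11302, against 11.4% higher and 11.1% lower among all tested genes, and 4 passed as higher and 1 as lower with SP600125, against 21.2% higher and 22.6% lower. The test was edgeR's quasi-likelihood test, and a gene passed with an adjusted p under 0.05 over all tested genes and a log2 fold change of at least 0.5 in size. The count of 6 higher in A549 cells with SR11302 was 3 without A549 SR11302 replicate 2, and also 3 without A549 NT replicate 1. The count of 2 higher in B2B cells with SR11302 was between 0 and 1 when any one of the 4 libraries was left out, and the count of 4 lower was 2 without B2B SR11302 replicate 2.

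The libraries held 13969766 to 24917854 reads in genes. A549 line genes summed to 21188 to 29529 CPM (counts scaled to library size) in the A549 libraries and 404 to 956 CPM in the B2B libraries, and B2B line genes to 904 to 1310 CPM in the A549 libraries and 2384 to 9111 CPM in the B2B libraries, the lowest of these in B2B SP600125. ALDH1A1 and AKR1B10, a pair of A549 line genes, had at least 3545 CPM in every A549 library, and B2B NT replicate 2 held more of them than replicate 1: 46.7 and 1.44 CPM of ALDH1A1, and 30.4 and 0.192 CPM of AKR1B10, in replicates 2 and 1. Without B2B NT replicate 2 these calls of the 10 genes were lost: FOXO4 between the untreated lines (-0.78), KLHL24 in B2B SR11302 (0.83), and the differences between lines of KLHL24 (1.62) and IRS2 (-0.64) for SR11302 and of PIK3IP1 (2.11) for SP600125. Without B2B NT replicate 1 instead, the KLHL24 calls (1.00 and 1.46) and the PIK3IP1 call (2.20) were lost as well, whereas that of FOXO4 (-1.09) was kept. The part of the A549 line genes in replicate 2 in these losses was not tested. Among markers of the tissues of origin, SFTPC was at most 0.223 CPM and SFTPB at most 0.743 CPM in any library, and KRT5 and KRT14 at most 0.778 and 0.192 CPM. The 8 alveolar type II markers nevertheless summed to 47.3 to 97.9 CPM, mostly from ABCA3, and the 6 bronchial basal markers to 136 to 214 CPM in A549 and 48.9 to 93.9 CPM in B2B libraries, mostly from ITGA6, so that the basal sum was higher in the line that is not bronchial. The 10 leukocyte, endothelial and fibroblast markers summed to 18.2 to 109 CPM, with CD3E at 0 in every library. The 2 A549 SR11302 libraries differed most from each other, with a chi-square per degree of freedom of 44 across genes, against 2.58 to 13.5 in the other groups. Reads outside annotated genes took 14.6 to 20.1% in the treated libraries and 23.8 to 25.9% in the NT libraries, a difference whose part in the changes was not tested. With scaling by library size alone the share of higher genes among those that passed moved to 66.3%, against 53.2% in the main test, for A549 SR11302, to 61.1% against 50.7% for B2B SR11302, and to 59.1% against 48.5% for B2B SP600125. That scaling put the median log2 fold change of all tested genes at 0.14 for A549 SR11302 and 0.15 for B2B SP600125, where the main test had 0.02 and 0.01. It also turned the balance between the untreated lines, to 4445 genes higher and 5018 lower in A549 NT, where the main test had 4977 and 4339, and that of A549 SP600125, to 4346 higher and 3731 lower, where the main test had 3910 and 4087.

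**Figure D1:**
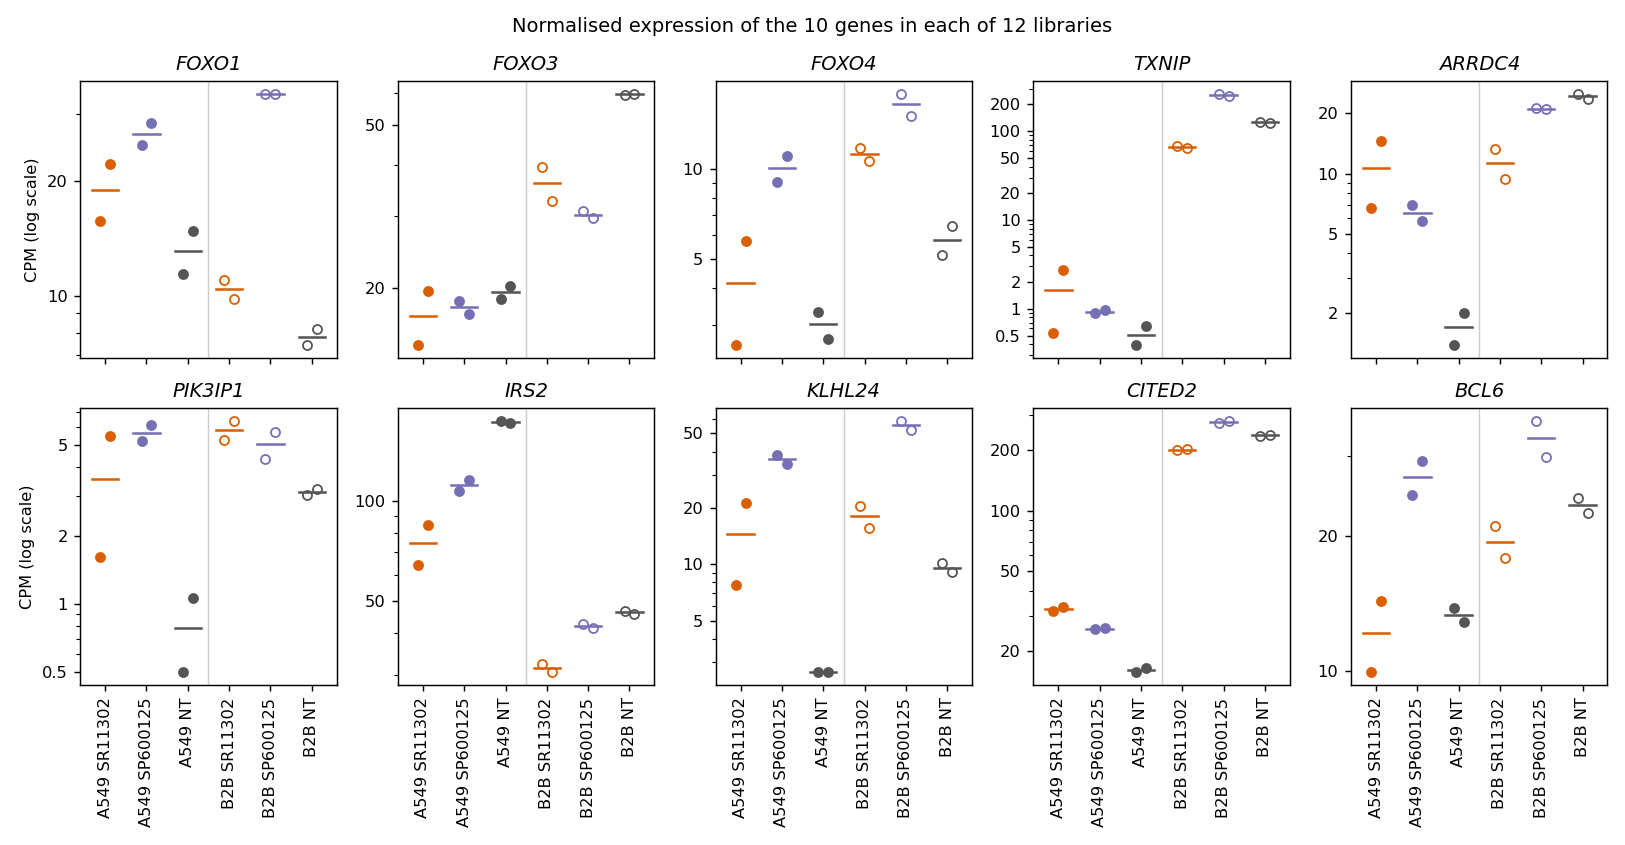
Normalised expression in CPM (log axis) of each of the 10 genes in 12 libraries. Filled points are A549 libraries, open points B2B libraries, and the short lines are means of 2 libraries. TXNIP lay between 0.389 and 2.72 CPM in A549 cells and between 65.3 and 265 CPM in B2B cells, and KLHL24 lay higher in every treated library than in both NT libraries of its line.

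The promoters of 4 genes with large changes, chosen after their values were seen, are shown because FOXO factors, MondoA and AP-1 bind known letters. They run from 250 bases before to 50 bases after a RefSeq start site, are written 5′ to 3′ on the gene's own strand, and come from GRCh38.p14. Capitals mark matches on either strand to the FOXO core TGTTTAC, the E box CACGTG, the AP-1 site TGAGTCA, or a pair of E-box-like letters (CACGNG or CNCGTG) separated by 5 bases, the layout of the carbohydrate response element that MondoA and its relatives bind. The TXNIP promoter, chr1:145996530-145996829 on the minus strand, held GTAAACA, the FOXO core on the other strand, at -124 from the start, and an E-box-like pair at -88. The ARRDC4 promoter, chr15:97960453-97960752 on the plus strand, held CACGTG at -210 and TGACTCA, the AP-1 site on the other strand, at -119. The KLHL24 promoter, chr3:183635373-183635672 on the plus strand, held TGAGTCA at -203. The downstream one of the PIK3IP1 promoters, chr22:31292439-31292738 on the minus strand, held TGTTTAC at 17 bases after the start.
TXNIP: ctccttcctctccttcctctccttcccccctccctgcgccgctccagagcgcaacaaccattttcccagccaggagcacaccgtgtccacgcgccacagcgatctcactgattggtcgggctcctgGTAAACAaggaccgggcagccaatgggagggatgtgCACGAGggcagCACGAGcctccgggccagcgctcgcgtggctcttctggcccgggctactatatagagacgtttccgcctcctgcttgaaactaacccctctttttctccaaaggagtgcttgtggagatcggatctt
ARRDC4: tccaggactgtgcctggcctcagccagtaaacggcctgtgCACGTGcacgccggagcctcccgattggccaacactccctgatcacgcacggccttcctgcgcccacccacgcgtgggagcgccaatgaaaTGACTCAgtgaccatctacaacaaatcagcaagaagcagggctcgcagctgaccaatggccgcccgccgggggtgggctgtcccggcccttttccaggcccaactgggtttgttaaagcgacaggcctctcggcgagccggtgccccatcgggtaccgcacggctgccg
KLHL24: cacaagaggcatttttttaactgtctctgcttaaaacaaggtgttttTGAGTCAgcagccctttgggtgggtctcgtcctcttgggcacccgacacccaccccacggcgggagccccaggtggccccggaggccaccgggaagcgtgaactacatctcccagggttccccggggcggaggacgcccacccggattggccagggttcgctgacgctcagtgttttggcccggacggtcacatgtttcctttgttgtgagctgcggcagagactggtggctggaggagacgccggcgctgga
PIK3IP1: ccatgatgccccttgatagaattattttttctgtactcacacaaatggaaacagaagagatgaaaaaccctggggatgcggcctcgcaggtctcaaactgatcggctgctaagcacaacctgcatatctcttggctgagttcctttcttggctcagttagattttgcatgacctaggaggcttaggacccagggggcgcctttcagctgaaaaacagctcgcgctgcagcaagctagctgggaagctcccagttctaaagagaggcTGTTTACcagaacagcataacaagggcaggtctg
Over the 18 RefSeq promoters of the 10 genes, TGTTTAC was found in 3 (those of FOXO4, TXNIP and PIK3IP1), against 3.42% of all 35116 promoters, and TGAGTCA in 4 (FOXO3, ARRDC4, KLHL24 and BCL6), against 4.95% of all promoters. Another FOXO-like stretch that was searched, TGTTTGT, was found only in 1 promoter of BCL6, against 5.23% of all promoters. The E box CACGTG was found in 2 (ARRDC4 and CITED2), against 7.26%, and the E-box-like pair in 1 (TXNIP), against 0.0769%. Promoters of 1 gene can overlap, and a match says only that the letters are there.

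FOXO1, on chromosome 13 (hg38, 40555667 to 40666641, minus strand), passed as higher in 3 of the 4 inhibitor comparisons, as did FOXO4. It had 15.7 and 22.2 CPM in A549 SR11302 libraries and 24.8 and 28.4 CPM in A549 SP600125 libraries, against 11.4 and 14.8 CPM in A549 NT libraries. All treated A549 libraries lay above both NT libraries, and those of SP600125 lay above those of SR11302. The log2 fold change was 0.54 ± 0.18 (SE, adjusted p = 0.0302) with SR11302 and 1.02 ± 0.18 (adjusted p = 0.000258) with SP600125. The SR11302 call was lost without A549 SR11302 replicate 2 (0.28, adjusted p = 0.227), without A549 NT replicate 1 (0.36, adjusted p = 0.248), with an offset for GC content (0.46) and in a fit of these groups alone (adjusted p = 0.123). In B2B cells FOXO1 had 11 and 9.80 CPM with SR11302 and 33.9 and 33.8 CPM with SP600125, against 7.42 and 8.18 CPM in B2B NT. Its rise with SP600125, 2.11 ± 0.18 on the log2 scale (adjusted p = 7.96e-07), was 4.33-fold, the largest change of a FOXO factor in these comparisons. With SR11302 the change of 0.42 did not pass (95% interval 0.01 to 0.82, adjusted p = 0.110).

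FOXO4, on chromosome X (71095851 to 71103532, plus strand), had 2.57 and 5.73 CPM in A549 SR11302 libraries and 9.01 and 11.1 CPM in A549 SP600125 libraries, against 3.33 and 2.71 CPM in A549 NT libraries. The SR11302 libraries lay on either side of NT, and those of SP600125 lay well above. The change with SP600125 was 1.74 ± 0.30 on the log2 scale (adjusted p = 0.000227), whereas 0.48 ± 0.31 with SR11302 did not pass, turned to -0.21 without A549 SR11302 replicate 2, and passed at 0.92 without replicate 1. In B2B cells it had 11.8 and 10.6 CPM with SR11302 and 17.9 and 15 CPM with SP600125, against 5.17 and 6.43 CPM in B2B NT. FOXO4 thus rose in B2B cells with SR11302 (0.95 ± 0.26, adjusted p = 0.0149) and with SP600125 (1.5 ± 0.26, adjusted p = 0.000283). The B2B SR11302 call was lost without B2B NT replicate 1 (adjusted p = 0.122) and without B2B SR11302 replicate 1 (adjusted p = 0.0780).

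FOXO3, on chromosome 6 (108559835 to 108684774, plus strand), went the other way from its relatives in B2B cells. It had 39.6 and 32.7 CPM in B2B SR11302 libraries and 30.8 and 29.6 CPM in B2B SP600125 libraries, against 59.2 and 59.7 CPM in B2B NT libraries. Every treated B2B library was below both NT libraries, and the log2 fold changes were -0.72 ± 0.14 with SR11302 (adjusted p = 0.00222) and -0.98 ± 0.14 with SP600125 (adjusted p = 8.06e-05). In A549 cells FOXO3 had 14.5 and 19.7 CPM with SR11302 and 18.6 and 17.3 CPM with SP600125, against 18.8 and 20.2 CPM in A549 NT, and neither change passed (95% intervals -0.52 to 0.14 and -0.45 to 0.21). FOXO3 counts are uncertain because 47.6% of its 50-base windows occur elsewhere in the genome, where FOXO3B is a near copy. FOXO3B itself had 8.55 and 5.13 CPM in B2B SR11302 and 9.25 and 8.58 CPM in B2B SP600125, against 13.6 and 13.3 CPM in B2B NT, changes of -0.95 and -0.59 on the log2 scale. In the other 9 genes at most 3.92% of windows were copied.

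TXNIP and ARRDC4 are alpha-arrestins. TXNIP binds thioredoxin and helps to remove glucose transporters from the cell surface, and ARRDC4 is its close relative. TXNIP, on chromosome 1 (145992435 to 145996579, minus strand), had 68.5 and 65.3 CPM in B2B SR11302 libraries and 265 and 248 CPM in B2B SP600125 libraries, against 129 and 124 CPM in B2B NT libraries. The 3 groups did not overlap, and the inhibitors moved the gene in opposite directions: the log2 fold change was -0.92 ± 0.23 (adjusted p = 0.00835) with SR11302 and 1.02 ± 0.23 (adjusted p = 0.00176) with SP600125. With DESeq2 neither call was kept, with log2 fold changes of -0.93 (adjusted p = 0.231) and 0.99 (adjusted p = 0.139). The SR11302 call was also lost without B2B NT replicate 1 (adjusted p = 0.0543) and without B2B SR11302 replicate 2 (adjusted p = 0.0607).

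In A549 cells TXNIP was barely detected. It had 11 and 65 reads in A549 SR11302 libraries (0.534 and 2.72 CPM), 12 and 14 reads in A549 SP600125 libraries (0.894 and 0.965 CPM), and 7 and 12 reads in A549 NT libraries (0.389 and 0.637 CPM). Only A549 SR11302 replicate 2 stood clear of the rest. The log2 fold change with SR11302 was 1.70 ± 0.57 (adjusted p = 0.0321), and without that library it was 0.07 (adjusted p = 0.948). The call was also lost without A549 NT replicate 1 (1.4, adjusted p = 0.18) or replicate 2 (2.10, adjusted p = 0.0736), and in a fit of these groups alone (adjusted p = 0.115). The change of 0.84 with SP600125 did not pass (95% interval -0.67 to 2.36). The A549 libraries held TXNIP at 0.307 to 2.15% of its B2B NT mean. Other B2B line genes differed among themselves in this measure. SPARC was at 1.15 and 1.49% of its B2B NT mean in A549 SR11302 replicates 1 and 2, against 0.0138 and 0.292% in A549 NT. RGS4 was at 0.306 and 0.702% in these replicates, against 0 in both A549 NT libraries. Replicate 2 was the higher for both, as for TXNIP. The 10 B2B line genes together went the other way, at 1310 CPM in A549 SR11302 replicate 1 and 1177 CPM in replicate 2. COL1A2 was at 0 in both A549 SR11302 libraries and at 0.310 and 0.336% in A549 NT replicate 2 and A549 SP600125 replicate 2, and EYA1 was at 0 in all A549 libraries. The part of RNA carried over between libraries in the low TXNIP values was not tested.

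ARRDC4, on chromosome 15 (97960703 to 97973833, plus strand), had 6.75 and 14.5 CPM in A549 SR11302 libraries and 6.93 and 5.79 CPM in A549 SP600125 libraries, against 1.39 and 2.02 CPM in A549 NT libraries. Every treated A549 library lay above both NT libraries. It rose 6.23-fold with SR11302 (log2 fold change 2.64 ± 0.34, adjusted p = 6.78e-05) and 3.71-fold with SP600125 (1.89 ± 0.37, adjusted p = 0.000666). The SR11302 change was 2.0 without A549 SR11302 replicate 2 (adjusted p = 4.74e-05). In B2B cells ARRDC4 moved the other way. It had 13.2 and 9.35 CPM in B2B SR11302 libraries and 21.1 and 21.1 CPM in B2B SP600125 libraries, against 25.1 and 23.7 CPM in B2B NT libraries, so that it fell by 1.10 ± 0.26 on the log2 scale with SR11302 (adjusted p = 0.00665) and showed -0.21 with SP600125, which did not pass (95% interval -0.75 to 0.34). The B2B SR11302 call was lost without B2B SR11302 replicate 2 (-0.88, adjusted p = 0.0765).

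The change of ARRDC4 differed between the lines for both inhibitors. The log2 fold change in A549 minus that in B2B was 3.74 ± 0.43 for SR11302 (adjusted p = 6.91e-05) and 2.10 ± 0.45 for SP600125 (adjusted p = 0.00434). For TXNIP the same difference was 2.62 ± 0.60 for SR11302 (adjusted p = 0.00987), but 1.01 without A549 SR11302 replicate 2 (adjusted p = 0.234) and 2.31 without A549 NT replicate 1 (adjusted p = 0.0701), and -0.17 ± 0.79 for SP600125, which did not pass. Among all tested genes 8.34% passed as higher and 7.41% as lower in this difference for SR11302, and 12.1% and 13.1% for SP600125. Of the 10 genes, 4 passed as higher and 1 as lower for SR11302, and 3 and 1 for SP600125.

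**Figure D2:**
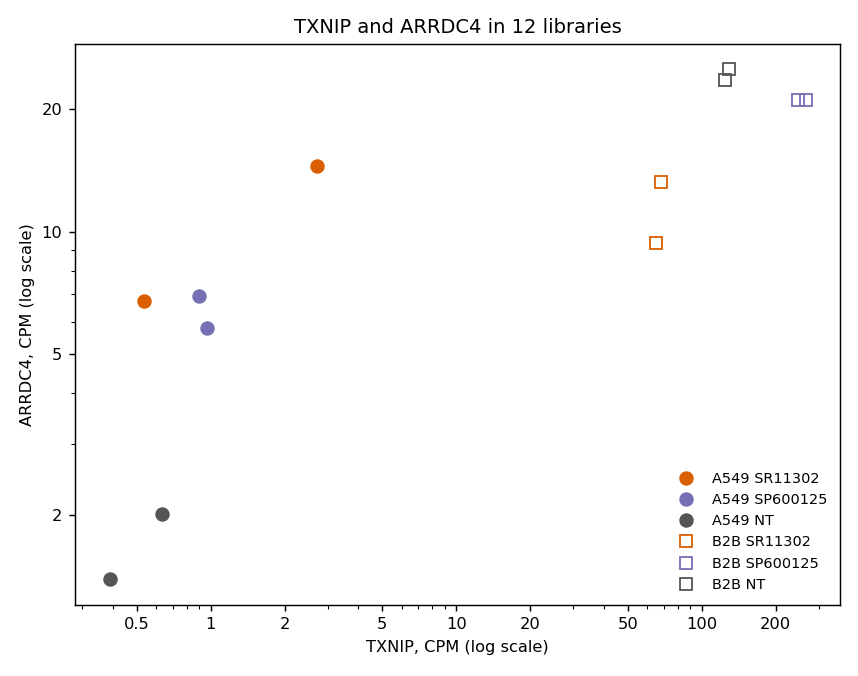
TXNIP against ARRDC4 in CPM (both axes log) in 12 libraries. Filled circles are A549 and open squares B2B, and colours mark treatment. ARRDC4 in A549 SR11302 replicate 2 (14.5 CPM) and replicate 1 (6.75 CPM) lay among or near the B2B SR11302 values (13.2 and 9.35 CPM), while TXNIP stayed at 2.72 CPM or less in every A549 library.

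PIK3IP1 and IRS2 act at opposite sides of PI3K: PIK3IP1 is a membrane protein that restrains the kinase, and IRS2 couples the insulin receptor to it. PIK3IP1, on chromosome 22 (31281594 to 31292534, minus strand), had 1.60 and 5.48 CPM in A549 SR11302 libraries and 5.21 and 6.13 CPM in A549 SP600125 libraries, against 0.500 and 1.06 CPM in A549 NT libraries. No treated library overlapped with NT, but the SR11302 libraries lay far apart. It rose 7.18-fold with SP600125 (log2 fold change 2.84 ± 0.51, adjusted p = 0.000307) and by 2.19 ± 0.51 with SR11302 (adjusted p = 0.00490). The SR11302 call was lost without A549 SR11302 replicate 2 (1.04, adjusted p = 0.0802) and without A549 NT replicate 1 (1.75, adjusted p = 0.0609). In B2B cells PIK3IP1 had 5.30 and 6.42 CPM with SR11302 and 4.36 and 5.72 CPM with SP600125, against 3.02 and 3.22 CPM in B2B NT. All treated B2B libraries lay above NT, yet neither change passed: 0.90 with SR11302 (95% interval 0.07 to 1.73, adjusted p = 0.0948) and 0.69 with SP600125 (-0.17 to 1.54, adjusted p = 0.161). In fits of the compared groups alone both passed, with adjusted p = 0.00326 and adjusted p = 0.0230, and with all genes that had any count kept both passed as well, with adjusted p = 0.00102 and adjusted p = 0.0132.

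IRS2, on chromosome 13 (109752695 to 109786583, minus strand), was the 1 gene that fell in A549 cells. It had 64.2 and 84.7 CPM in A549 SR11302 libraries and 107 and 116 CPM in A549 SP600125 libraries, against 174 and 171 CPM in A549 NT libraries. Every treated library was below both NT libraries. IRS2 fell by 1.21 ± 0.12 on the log2 scale with SR11302 (adjusted p = 8.04e-06) and by 0.63 ± 0.12 with SP600125 (adjusted p = 0.000533). With an offset for GC content, which is 58.7% over the exons of IRS2, the SP600125 change was -0.15 and did not pass (adjusted p = 0.417). In B2B cells IRS2 had 32.3 and 30.6 CPM with SR11302 and 42.7 and 41.4 CPM with SP600125, against 46.7 and 45.8 CPM in B2B NT. It fell by 0.56 ± 0.13 with SR11302 (adjusted p = 0.00497), and was -0.48 with scaling by library size alone, just under the size required. With SP600125 the change of -0.14 did not pass and its sign turned with the GC offset (0.02) and with scaling by library size (0.0022).

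KLHL24 had the largest fold change of the 10 genes with SP600125 in both lines. It encodes a substrate adaptor of a ubiquitin ligase that degrades keratin 14 in skin. The gene is on chromosome 3 (183635610 to 183684519, plus strand). It had 7.72 and 21.3 CPM in A549 SR11302 libraries and 38.4 and 34.4 CPM in A549 SP600125 libraries, against 2.67 and 2.65 CPM in A549 NT libraries. The 3 groups did not overlap. It rose 13.6-fold with SP600125 (log2 fold change 3.77 ± 0.37, adjusted p = 2.18e-06), which placed it 112th from the top of 16373 genes, and 5.49-fold with SR11302 (2.46 ± 0.37, adjusted p = 0.000243), or 1.55 without A549 SR11302 replicate 2 (adjusted p = 8.89e-05). With the GC offset the SP600125 rise was 3.31. In B2B cells it had 20.4 and 15.7 CPM with SR11302 and 58.5 and 52.0 CPM with SP600125, against 10.1 and 9.08 CPM in B2B NT. The rise with SP600125 was 5.75-fold (2.52 ± 0.31, adjusted p = 1.84e-05) and that with SR11302 was 0.92 ± 0.31 on the log2 scale (adjusted p = 0.0417). The SR11302 call was lost when any one of its 4 libraries was left out, with log2 fold changes of 0.71 (without B2B SR11302 replicate 1), 1.09 (without B2B SR11302 replicate 2), 1.00 (without B2B NT replicate 1) and 0.83 (without B2B NT replicate 2).

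CITED2, a transcriptional co-regulator that competes with HIF-1α for CBP and p300, is on chromosome 6 (139371807 to 139374648, minus strand). It had 31.6 and 33.4 CPM in A549 SR11302 libraries and 25.9 and 26.0 CPM in A549 SP600125 libraries, against 15.7 and 16.5 CPM in A549 NT libraries. Its replicates lay close together in every group, and the A549 groups did not overlap. It rose 2.02-fold with SR11302 (log2 fold change 1.01 ± 0.10, adjusted p = 6.05e-06) and 1.61-fold with SP600125 (0.69 ± 0.10, adjusted p = 6.78e-05), and leaving out either A549 SR11302 library left the SR11302 value between 0.99 and 1.05. In B2B cells it had 201 and 203 CPM with SR11302 and 275 and 281 CPM with SP600125, against 236 and 240 CPM in B2B NT. These changes were below the size required, at -0.24 (adjusted p = 0.0597) and 0.23 (adjusted p = 0.0454). The change with SR11302 in A549 minus that in B2B was 1.25 ± 0.13 (adjusted p = 3.35e-05).

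BCL6, a zinc finger repressor that FOXO factors are known to switch on in blood cells, is on chromosome 3 (187721377 to 187745725, minus strand). It had 9.95 and 14.3 CPM in A549 SR11302 libraries and 24.6 and 29.4 CPM in A549 SP600125 libraries, against 13.8 and 12.8 CPM in A549 NT libraries. Only the SP600125 libraries stood apart from NT. The rise with SP600125 was 2.02-fold (log2 fold change 1.02 ± 0.18, adjusted p = 0.000279), and the value with SR11302 was -0.13 (95% interval -0.52 to 0.26). In B2B cells BCL6 had 21.0 and 17.8 CPM with SR11302 and 36.0 and 29.9 CPM with SP600125, against 24.2 and 22.5 CPM in B2B NT. With SP600125 the change of 0.50 ± 0.17 (adjusted p = 0.0231) fell just short of the size required before rounding. It passed at 0.64 with scaling by library size alone, but was 0.35 with the GC offset (adjusted p = 0.0840). The change was 0.32 without B2B SP600125 replicate 1 and 0.62 without replicate 2.

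**Figure D3:**
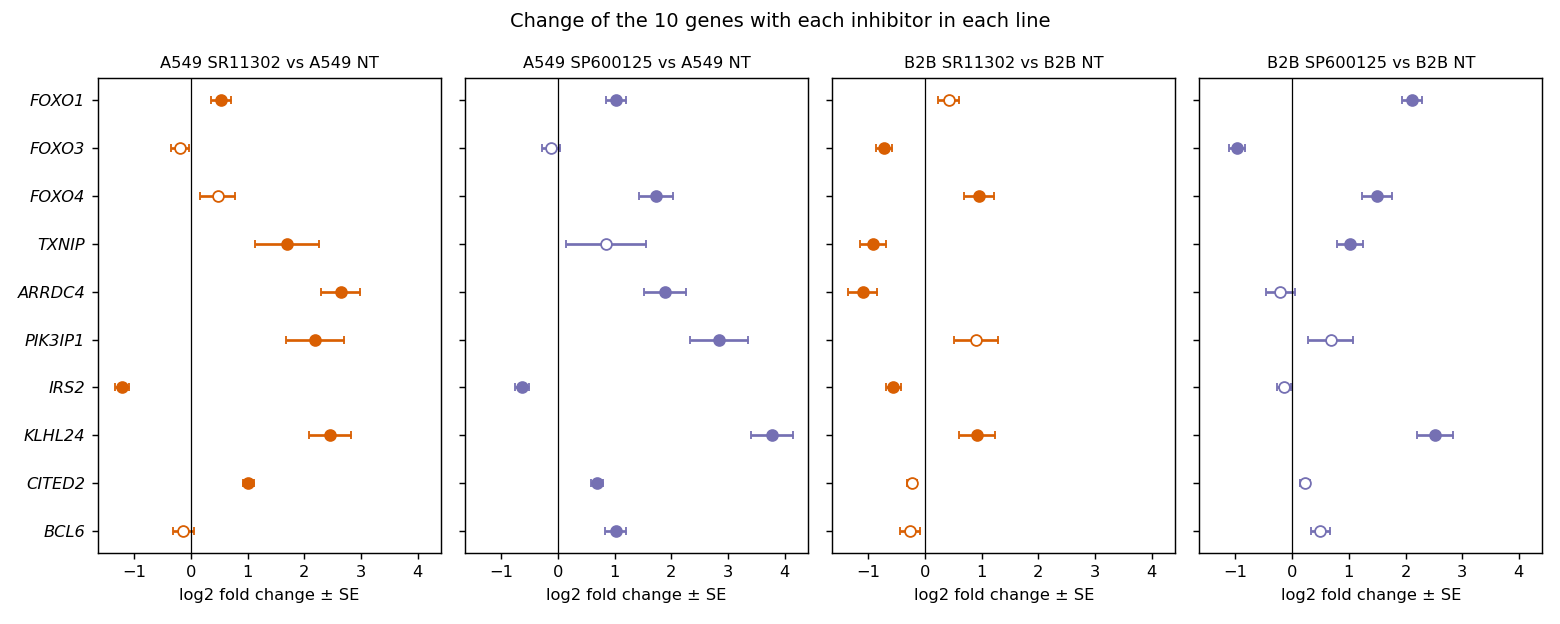
Log2 fold change ± SE of the 10 genes for SR11302 and SP600125 over NT in A549 and in B2B (n = 2 libraries a group). Filled points passed the test and open points did not. KLHL24 lay farthest right with SP600125 in both lines (3.77 in A549 and 2.52 in B2B), ARRDC4 lay at 2.64 in A549 and -1.10 in B2B with SR11302, and open points lie on both sides of 0.

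The SR11302 replicates in A549 cells were unequal, and every one of these genes had a higher CPM in replicate 2 than in replicate 1. In proportion the gap was widest for KLHL24, PIK3IP1, TXNIP, ARRDC4 and FOXO4. It was smaller for FOXO1, FOXO3, BCL6 and IRS2, and CITED2 was nearly alike in both (31.6 and 33.4 CPM). Taken singly against both NT libraries, replicate 1 and replicate 2 gave log2 fold changes of 1.55 and 3.0 for KLHL24, 1.04 and 2.79 for PIK3IP1, 2.0 and 3.08 for ARRDC4 and -1.41 and -1.03 for IRS2. A fit with 1 SR11302 library takes its spread from the other groups and assumes that the lone library varies as they do. Under that assumption KLHL24, ARRDC4 and IRS2, and also CITED2, passed with either library.

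**Figure D4:**
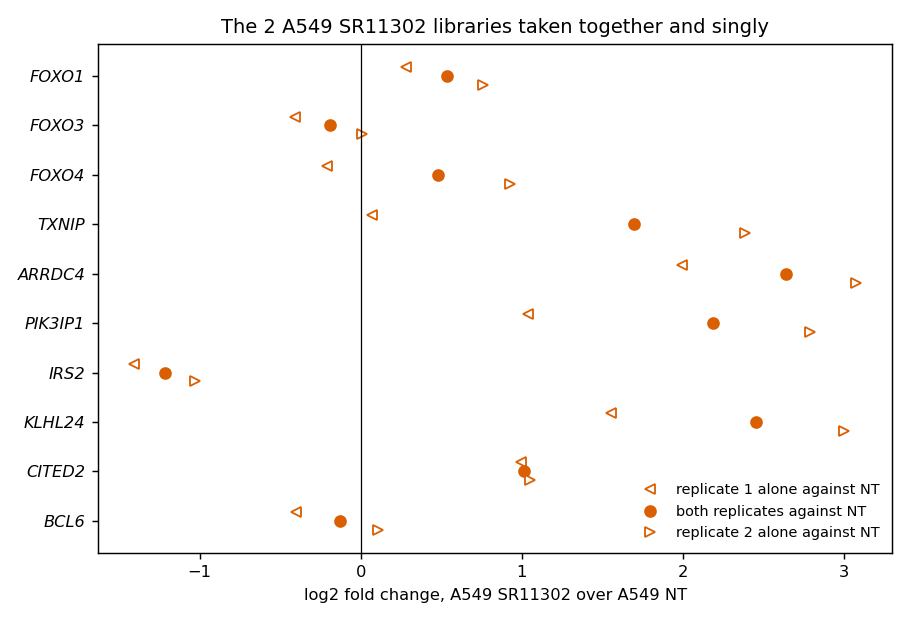
Log2 fold change over A549 NT of the 10 genes for the A549 SR11302 libraries together (filled circles), for replicate 1 alone (triangles pointing left) and for replicate 2 alone (triangles pointing right). CITED2 lay at 0.99 to 1.05 in all 3, whereas TXNIP lay at 0.07 with replicate 1 alone and 2.38 with replicate 2 alone.

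Between the untreated lines, all 10 genes passed the test, as did 56.9% of all tested genes, where 30.4% of all tested genes passed as higher in A549 and 26.5% as lower. FOXO1 and IRS2 were higher in A549 NT, by 0.74 ± 0.19 and 1.90 ± 0.13 on the log2 scale, and the other 8 were lower. TXNIP averaged 0.513 ± 0.175 CPM in A549 NT and 127 ± 2.96 CPM in B2B NT (SD, n = 2 each), a log2 fold change of -7.92 ± 0.38 (adjusted p = 3.35e-10), the 165th lowest of 16373 genes. CITED2 averaged 16.1 ± 0.554 CPM in A549 NT and 238 ± 2.65 CPM in B2B NT (-3.88 ± 0.10), and ARRDC4 1.70 ± 0.444 CPM in A549 NT and 24.4 ± 0.990 CPM in B2B NT (-3.83 ± 0.33). KLHL24 (-1.85), PIK3IP1 (-1.98), FOXO3 (-1.61), FOXO4 (-0.95) and BCL6 (-0.81) were also lower in A549 NT. FOXO4 lost its call without A549 NT replicate 2 (adjusted p = 0.0912) and without B2B NT replicate 2 (adjusted p = 0.0867). In these bulk samples fewer expressing cells and less RNA per cell cannot be told apart.

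On a scale per gene length (RPKM), IRS2 was the most abundant of the 10 transcripts in A549 NT at 21.2 ± 0.228, followed by CITED2 at 6.29 ± 0.216. FOXO3 (2.55 ± 0.128), BCL6 (2.25 ± 0.118) and FOXO1 (2.19 ± 0.399) came next, and BCL6 and FOXO1 did not differ beyond their spread. TXNIP was the lowest at 0.142 ± 0.0487. In B2B NT the order was led by CITED2 at 92.9 ± 1.03 RPKM and TXNIP at 35.1 ± 0.821, followed by FOXO3 at 7.75 ± 0.0526, ARRDC4 at 6.00 ± 0.244 and IRS2 at 5.67 ± 0.0739. FOXO4 (1.53 ± 0.235) and FOXO1 (1.31 ± 0.0902) did not differ beyond their spread there. With SP600125 the measured order of the FOXO genes in B2B cells changed: FOXO1 stood at 5.68 ± 0.0196 RPKM, FOXO4 at 4.34 ± 0.531 and FOXO3 at 3.94 ± 0.109, and FOXO4 and FOXO3 were within their spread. The place of FOXO3 in all these orders is uncertain, since 47.6% of its 50-base windows occur elsewhere in the genome. Its RPKM was not adjusted for such windows and could be too low. FOXO6, another FOXO gene, was at 4.44 CPM or less in all libraries.

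Across the 12 libraries, which share line and treatment differences, CITED2 followed TXNIP most closely among the 10 genes (r = 0.986 of log2 values), with r = 0.626 within A549 and 0.993 within B2B. ARRDC4 followed TXNIP at r = 0.825, and at 0.805 within A549 and 0.723 within B2B. Within A549, TXNIP had 65 reads in SR11302 replicate 2 and 7 to 14 in the other libraries. Its r values there therefore lean on that library. KLHL24 followed FOXO4 at 0.889 and PIK3IP1 at 0.861, and within single lines it followed FOXO1 at 0.957 in A549 and 0.980 in B2B. Its r with PIK3IP1 was 0.968 within A549, above that with FOXO1, and 0.504 within B2B. Over all tested genes, the 5 most like KLHL24 were PCMTD2, ZFP90, NBR1, SERINC3 and HBP1 (r = 0.977 to 0.991), and the 5 most like PIK3IP1 were GNAI1, COG6, PPP1R3D, MIA3 and RNMT (r = 0.908 to 0.925). Those most like TXNIP were YEATS2, ZNF468, ZNF738, ZNF493 and ZNF829 (r = 0.995 to 0.997), and those most like ARRDC4 were KIAA0907, EYA4, COL4A5, ZNF254 and KIF2A (r = 0.960 to 0.980). These values are descriptions over 12 libraries of 6 groups.

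Of 30 other genes known as FOXO targets, 25 were tested, and most of those that changed with SP600125 rose. In A549 cells 11 passed as higher and 3 as lower with SR11302, where 14.8% of all tested genes passed as higher and 13.0% as lower, with a median log2 fold change of 0.54 against 0.02 over all tested genes. With SP600125 17 passed as higher and 2 as lower, against 23.9% and 25.0% of all tested genes, with a median of 0.98. In B2B cells 4 passed as higher and 3 as lower with SR11302, against 11.4% and 11.1% of all tested genes, with a median of 0.16, and 15 passed as higher and 5 as lower with SP600125, against 21.2% and 22.6% of all tested genes, with a median of 0.58 against 0.01. The 5 lower genes in B2B SP600125 were near the share over all genes. Without A549 SR11302 replicate 2 the A549 counts with SR11302 were 10 higher and 5 lower. The other counts of lower genes also rested on single libraries: in B2B SP600125 2 were lower without B2B SP600125 replicate 1 and 3 without B2B NT replicate 2, in B2B SR11302 1 without B2B SR11302 replicate 1 or without B2B NT replicate 2, and in A549 SP600125 1 without either A549 NT library or without A549 SP600125 replicate 2. The B2B counts of lower genes include IGFBP1, which was at 0 in both B2B SR11302 libraries and under 0.33 CPM in B2B NT. The B2B SR11302 median was the same with IGFBP1 set at the floor of 3 counts per library. It could not have moved, since IGFBP1 lay below the median both in the fit (-5.61) and at the floor (-1.07). The count of lower genes was not recomputed with that floor.

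SESN3, a sestrin that restrains mTORC1 under nutrient stress, had 31.4 and 69.3 CPM in A549 SR11302 and 27.3 and 28.4 CPM in A549 SP600125, against 4.0 and 5.10 CPM in A549 NT. In B2B cells it had 14.4 and 10.5 CPM with SR11302 and 10.2 and 5.54 CPM with SP600125, against 0.383 and 0.488 CPM in B2B NT. Treated and NT libraries of each line lay far apart, and SESN3 rose by 3.47, 2.61, 4.81 and 4.16 on the log2 scale in A549 SR11302, A549 SP600125, B2B SR11302 and B2B SP600125. GABARAPL1, which acts in autophagosome formation, had 107 and 115 CPM in A549 SP600125, against 27.3 and 23.9 CPM in A549 NT, and 182 and 165 CPM in B2B SP600125, against 36.1 and 36.8 CPM in B2B NT. Its log2 fold changes were 2.11 and 2.25, and it also rose with SR11302, by 0.91 in A549 and 1.28 in B2B.

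CCNG2, an atypical cyclin of cell cycle arrest, had 6.6 and 17.7 CPM in A549 SR11302 and 30.2 and 28.2 CPM in A549 SP600125, against 2.39 and 3.77 CPM in A549 NT, rises of 2.0 and 3.24 on the log2 scale. SESN1, another sestrin, rose by 1.81 with SR11302 and by 2.7 with SP600125 in A549, and FBXO32, a ubiquitin ligase subunit of muscle atrophy, by 1.63 and 2.68. In B2B cells CCNG2, SESN1 and FBXO32 also rose with SP600125, by 1.37, 1.39 and 1.01, and none of them passed with SR11302. TNFSF10, the death ligand TRAIL, rose in B2B SP600125 to 3.17 and 2.68 CPM, against 0.383 and 0.244 CPM in B2B NT (log2 fold change 3.22). It also rose in A549 SP600125 (2.40), to a mean of 1.47 CPM. PPARGC1A, a coactivator of mitochondrial genes, fell in A549 SR11302 (-2.17), at 0.291 and 1.17 CPM against 3.0 and 3.82 CPM in A549 NT. In B2B SR11302 its change of -0.55 did not pass. With SP600125 PPARGC1A rose in both lines, by 0.92 in A549 and by 2.45 in B2B. It had 3.53 and 2.98 CPM in B2B SP600125, against 0.575 and 0.611 CPM in B2B NT. KLF2, a zinc finger factor of quiescent cells, fell in all 4 comparisons: it had 5.24 and 4.06 CPM in A549 SR11302, against 52.6 and 46.3 CPM in A549 NT, and its log2 fold changes were -3.42 and -1.60 in A549 with SR11302 and SP600125 and -0.69 and -0.57 in B2B. IGFBP1 also passed as lower in all 4, with -1.41 and -0.65 in A549, while in B2B cells it was near the limit of detection. In B2B cells with SR11302, ERBB3, a receptor of the EGFR family, rose by 1.80. BNIP3, a mitophagy receptor, fell in B2B cells by 1.28 with SR11302 and by 1.47 with SP600125 on the log2 scale. S1PR1, a lipid receptor, fell in B2B SP600125 by 2.31, to 2.34 and 5.72 CPM, against 18.9 and 20.6 CPM in B2B NT.

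**Figure D5:**
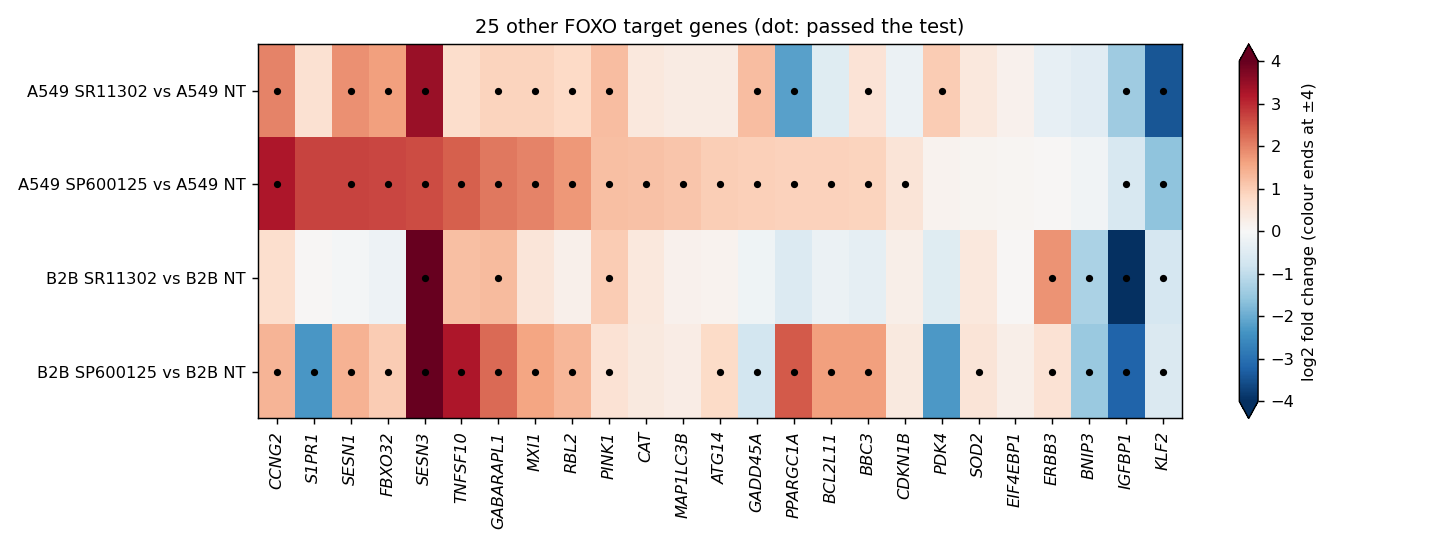
Log2 fold change (colour, red higher and blue lower than NT) of 25 other FOXO target genes in the 4 comparisons, ordered by A549 SP600125. Black dots mark genes that passed the test. SESN3 was red with a dot in all 4 rows (2.61 to 4.81) and KLF2 blue with a dot in all 4 (-3.42 to -0.57).

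Between the untreated lines these targets were split, with 9 passing as higher in A549 and 10 as lower (median -0.14, against 0.05 over all tested genes). Over all tested genes 30.4% passed as higher and 26.5% as lower. PDK4, which slows glucose oxidation, had 92.8 and 99.0 CPM in A549 NT, against 0.0479 and 0.773 CPM in B2B NT. IGFBP1, an insulin-like growth factor binding protein of liver, had 28.9 and 29 CPM in A549 NT, against 0.287 and 0.326 CPM in B2B NT. CCNG2 went the other way, with a log2 fold change of -3.39, and S1PR1 had 0 and 0.0531 CPM in A549 NT, against 18.9 and 20.6 CPM in B2B NT.

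Of the genes of the insulin, PI3K and AKT pathway 21 of 21 were tested. In A549 cells 4 passed as higher and 2 as lower with SR11302 (median 0.09), and 5 and 5 with SP600125 (median -0.27). In B2B cells 0 passed as higher and 3 as lower with SR11302 (median 0.02), and 6 and 3 with SP600125 (median 0.14). Over all tested genes 14.8% passed as higher and 13.0% as lower in A549 SR11302, 23.9% and 25.0% in A549 SP600125, 11.4% and 11.1% in B2B SR11302, and 21.2% and 22.6% in B2B SP600125, so these counts lay near the shares of all genes. SGK1, a kinase that phosphorylates FOXO factors as AKT does, had 20.8 and 21.0 CPM in A549 SR11302, against 75.6 and 76.5 CPM in A549 NT, and fell by 1.86 on the log2 scale. It also fell in B2B SR11302, by 0.67, and rose in B2B SP600125, by 0.60. RICTOR, a subunit of the kinase complex mTORC2 that activates AKT, rose in A549 SP600125 to 177 and 178 CPM, against 54.3 and 78.5 CPM in A549 NT (log2 fold change 1.42). PIK3R3, a regulatory subunit of PI3K, rose by 0.96 in A549 SR11302, 0.89 in A549 SP600125 and 0.63 in B2B SP600125. INSR, the insulin receptor, rose by 1.10 in B2B SP600125 and by 0.75 in A549 SP600125. IRS1, the relative of IRS2, fell in B2B SR11302 by 0.72 and in A549 SP600125 by 0.69. BNIP3, among the FOXO targets above, has a processed pseudogene, so its counts are uncertain. Between the untreated lines 3 of the 21 genes were higher and 7 lower in A549, against 30.4% and 26.5% of all tested genes. PIK3R3 (-2.63) and PIK3CD (-2.40), a catalytic subunit, were among the lower ones.

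Among 15 regulators and cofactors of FOXO proteins, 1 passed as higher and 3 as lower in A549 SR11302, 3 and 3 in A549 SP600125, 1 and 2 in B2B SR11302, and 3 and 1 in B2B SP600125, while 2 were higher and 2 lower in A549 NT relative to B2B NT. Over all tested genes 14.8% passed as higher and 13.0% as lower in A549 SR11302, and 23.9% and 25.0% in A549 SP600125. The shares were 11.4% and 11.1% in B2B SR11302 and 21.2% and 22.6% in B2B SP600125. Between the untreated lines they were 30.4% and 26.5%. With 15 genes the inhibitor counts lay near or below these shares in most cases. YWHAZ, a 14-3-3 protein that holds phosphorylated FOXO in the cytoplasm, had 464 and 566 CPM in A549 SR11302 and 684 and 646 CPM in A549 SP600125, against 1238 and 1315 CPM in A549 NT, and 391 and 348 CPM in B2B SR11302 and 352 and 363 CPM in B2B SP600125, against 815 and 818 CPM in B2B NT. Its log2 fold changes ran between -1.31 and -0.94 over these 4 comparisons, and it too has processed pseudogenes that could share its reads. MDM2, a ubiquitin ligase for FOXO proteins and p53, rose in A549 by 0.85 with SR11302 and 1.18 with SP600125, and fell by 0.89 in B2B SR11302. FOXM1, a forkhead factor of dividing cells that FOXO3 opposes, fell in A549 by 0.52 with SR11302 and 0.95 with SP600125, and rose in B2B by 0.55 with SR11302 and 0.88 with SP600125.

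In the MondoA and thioredoxin axis, 11 of 11 genes tested, 0 passed as higher and 1 as lower in A549 SR11302, 2 and 4 in A549 SP600125, 2 and 1 in B2B SR11302, and 1 and 3 in B2B SP600125, while 4 were higher and 2 lower in A549 NT relative to B2B NT. With 11 genes these counts lay near the shares of all tested genes. Those shares were 14.8% higher and 13.0% lower in A549 SR11302, and 23.9% and 25.0% in A549 SP600125. In B2B SR11302 they were 11.4% and 11.1%, in B2B SP600125 21.2% and 22.6%, and between the untreated lines 30.4% and 26.5%. HK2, the hexokinase that makes the glucose phosphate MondoA senses, had 1.71 and 0.551 CPM in A549 SP600125, against 5.61 and 5.41 CPM in A549 NT, and 13.0 and 16.2 CPM in B2B SP600125, against 90.8 and 89.3 CPM in B2B NT. It fell by 2.30 and 2.63 on the log2 scale, and by 1.18 in B2B SR11302. SLC2A3, a glucose transporter, fell by 1.90 in B2B SP600125, and SLC2A1, another, by 0.65 in A549 SP600125. TXNRD1, the thioredoxin reductase, rose by 0.73 in A549 SP600125, 1.07 in B2B SR11302 and 1.06 in B2B SP600125. MLXIPL, the MondoA relative ChREBP, had 15.9 and 16.6 CPM in A549 NT, against 0.239 and 0.326 CPM in B2B NT, and fell in A549 with SR11302 (-0.72) and SP600125 (-1.09). HK2 was lower in A549 NT than in B2B NT by 4.03.

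Of the other alpha-arrestins 3 were tested. In A549 SR11302 0 of them passed, where 14.8% of all tested genes passed as higher and 13.0% as lower. ARRDC3 rose (0.99) and ARRDC1 fell (-0.71) in A549 SP600125, and ARRDC1 rose in B2B SR11302 (0.60). ARRDC2 rose in B2B SP600125 (0.68) and was higher in A549 NT than in B2B NT (2.44). With 3 genes these counts were too small to read apart from the shares of all tested genes, which are given below. Of 11 tested partners of CITED2, BCL6 and KLHL24, 3 passed as higher and 1 as lower in A549 SR11302, 3 and 2 in A549 SP600125, 2 and 1 in B2B SR11302, and 4 and 1 in B2B SP600125, while 3 were higher and 4 lower in A549 NT relative to B2B NT. The counts in A549 SP600125 lay near the 23.9% and 25.0% of all tested genes. The shares were 14.8% higher and 13.0% lower in A549 SR11302, 11.4% and 11.1% in B2B SR11302, and 21.2% and 22.6% in B2B SP600125. Between the untreated lines they were 30.4% and 26.5%. With 11 genes the counts in these comparisons were too small to read apart from such shares. CITED4, a relative of CITED2, had 45.3 and 26.3 CPM in A549 SR11302, against 11.9 and 8.86 CPM in A549 NT (log2 fold change 1.78), and rose in B2B by 1.00 with SR11302 and 0.84 with SP600125. PRDM1, the repressor that BCL6 opposes in B cells, rose by 1.18 in A549 SR11302, 1.75 in A549 SP600125 and 1.78 in B2B SP600125. HIF1A, whose protein CITED2 restrains, rose by 0.53 in A549 SR11302 and 0.87 in A549 SP600125.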

How the data were processed

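Total RNA of A549 and B2B cells was made into polyA-selected mRNA libraries by the authors. Per the labels and the study's methods, they aligned reads to hg38 with STAR 2.7.10a, and HTSeq 1.99.2 gave the reads per gene. The deposited values are raw read counts per gene symbol. The sources used here give neither annotation version nor strand setting, so reads of overlapping or antisense genes cannot be told apart. The sources name more than 1 sequencing instrument, without saying which library ran on which.

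Groups came from the labels. HTSeq's summary lines were left out of library sizes (reads outside genes, 14.6 to 25.9%). Counts were tested with edgeR 4.0.16 (R 4.3.3): filterByExpr, TMM factors, 1 quasi-likelihood model of 6 groups, and Benjamini-Hochberg adjustment over 16373 genes. SEs are the log2 fold change divided by the square root of F. A gene passed at an adjusted p of 0.05 and a log2 fold change of 0.5. Each inhibitor was set against NT of its line, A549 NT against B2B NT, and the changes in the lines against each other. SR11302 and SP600125 share NT libraries and differ in dose, and were not tested against each other. CPM used TMM-scaled library sizes, and RPKM merged exon lengths of GENCODE v44 (23161 of 26485 symbols matched). Likeness was Pearson's r of log2(CPM + 1). Promoters came from RefSeq tables of GRCh38.p14. With 2 libraries a group, each test had 6 residual degrees of freedom, and depth limits TXNIP in A549 most.

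Besides the 10 members, up to 4 genes that passed with the largest change were named per list and comparison (at least 1 CPM in the higher group), with their values elsewhere. Members, lists and the rule were chosen with earlier results of these data known. The alternatives were DESeq2 1.42.0 (its Wald test, or its size factors in edgeR), library size alone, no filter, a GC offset in 20 bins (90.7% of tested genes had a GC value), only the compared groups, a replicate block, and leaving out each library. The fit was tested on simulated data. Some genes counted in the lists are not reported here by name.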

Additional observations from a re-analysis of the deposited data

Results flagged for a closer look

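The change with an inhibitor differed between the lines, by edgeR's interaction test, in 9 cases. Values are the log2 fold change in A549 minus that in B2B ± SE. For SR11302 they were 3.74 ± 0.43 for ARRDC4 (adjusted p = 6.91e-05), 2.62 ± 0.60 for TXNIP (adjusted p = 0.00987), 1.54 ± 0.49 for KLHL24 (adjusted p = 0.0480), 1.25 ± 0.13 for CITED2 (adjusted p = 3.35e-05) and -0.66 ± 0.17 for IRS2 (adjusted p = 0.0204). For SP600125 they were 2.16 ± 0.66 for PIK3IP1 (adjusted p = 0.0271), 2.10 ± 0.45 for ARRDC4 (adjusted p = 0.00434), 0.85 ± 0.21 for FOXO3 (adjusted p = 0.00947) and -1.09 ± 0.25 for FOXO1 (adjusted p = 0.00651).

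ARRDC4 (both inhibitors), CITED2, FOXO1 and FOXO3 passed with any one of the 8 libraries left out. KLHL24 lost its call in 7 of 8 such fits, where its difference ran between 0.66 (without A549 SR11302 replicate 2) and 1.75 (without B2B SR11302 replicate 1), and also lost it with library size alone (1.59, adjusted p = 0.0530) and in a fit of the compared groups alone (1.60, adjusted p = 0.100). PIK3IP1 lost it in 6 of 8 (1.73 to 2.27), IRS2 in 5 of 8 (-0.67 to -0.47), and TXNIP in 2 of 8, without A549 SR11302 replicate 2 (1.01) and without A549 NT replicate 1 (2.31). FOXO3 reads can also come from FOXO3B, whose difference for SP600125 was 0.55 (adjusted p = 0.191).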

How the results depend on the processing

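Each of the 70 member changes (10 genes in 7 comparisons) was recomputed under 8 alternatives and 360 times with 1 library left out. DESeq2 size factors in edgeR changed 0 calls. The DESeq2 Wald test ended 2, both of TXNIP in B2B, and added KLHL24 in the SP600125 difference between lines. Left-out libraries ended 38 calls, added 5 and turned 7 signs; the causes were not tested. The signs turned, in genes that had not passed, in A549 SR11302 for FOXO3 (range -0.41 to 0.0091), BCL6 (-0.40 to 0.11) and FOXO4 (-0.21 to 0.92), all by its own replicates, in the SR11302 difference between lines for BCL6 (-0.12 to 0.37) and FOXO1 (-0.12 to 0.34, and -0.06 without A549 NT replicate 1), and in the SP600125 difference for TXNIP (-0.48 to 0.23) by the A549 NT replicates. IRS2 in B2B SP600125 turned to 0.0242 with the GC offset, to 0.0245 with the block and GC offset, and to 0.0022 with library size alone. The number of members called lower was 0 (1 in the main test) in A549 SP600125 with the GC offset, alone or with the block, and 0 in the SR11302 difference with these and with only the compared groups. In the SP600125 difference 5 members were higher (3 in the main test) with only the compared groups and 2 lower (1 in the main test) with library size alone. Over fits with 1 library left out, members called higher ran 3 to 7 in A549 SR11302, 0 to 1 in B2B SR11302 and 2 to 6 in the SR11302 difference, and members called lower 2 to 4 in B2B SR11302 and 0 to 2 in the SR11302 difference. Genes called ran 2389 to 3219 in B2B SR11302 (3677 in the main test), 1396 to 4765 in the SR11302 difference (2579) and 2745 to 3678 in the SP600125 difference (4121). The correlation of replicate differences between groups ran from -0.48 (A549 SR11302 with B2B SR11302) to 0.44 (A549 SR11302 with A549 NT). These values do not settle whether replicate numbers pair the samples. With the replicate block 4418 genes passed in A549 SR11302, 7888 in A549 SP600125, 3506 in B2B SR11302 and 7081 in B2B SP600125, and 3 member calls changed: KLHL24 lost its call in B2B SR11302 (0.92, adjusted p = 0.0519) and in the SR11302 difference (1.52, adjusted p = 0.0649), and PIK3IP1 passed in B2B SR11302 (0.92, adjusted p = 0.0494). The list counts of other FOXO targets without single libraries were added after seeing the data; higher genes ran 9 to 13 in A549 SR11302, 15 to 17 in A549 SP600125, 4 to 4 in B2B SR11302 and 13 to 15 in B2B SP600125, and lower genes 3 to 5 in A549 SR11302, 1 to 2 in A549 SP600125, 1 to 3 in B2B SR11302 and 2 to 5 in B2B SP600125. Depth limits TXNIP in A549, where 7 to 65 reads stood behind each value.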
